A study of Mus musculus with 8 samples.

Results

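The effect of host Ccrl2 deficiency was compared between LLC and B16 tumors grafted in mice. For each gene, the host effect in Lewis lung carcinoma (LLC) tumors, taken as Ccrl2 KO host minus WT host on the log2 scale, was set against the same host effect in B16 tumors, and the difference between both host effects was tested. All 8 libraries of the series entered this comparison, and 14706 of the 47729 genes in the table passed the filter on low values and were tested. In what follows, LLC KO and B16 KO stand for tumors of Ccrl2 KO mice, LLC WT and B16 WT for tumors of WT mice, and the knockout lies in the host only, since the grafted cells carried an intact Ccrl2 gene.

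The 4 groups were LLC tumors of CCRL2 KO mice, LLC tumors of CCRL2 WT mice, B16 tumors of CCRL2 KO mice and B16 tumors of CCRL2 WT mice. The hosts were syngeneic mice, given as C57BL/6 in the labels and as C57BL/6J in the methods of the study, which used them at 6 to 12 weeks of age except where it stated otherwise, and LLC or B16-F0 melanoma cells were grafted under the skin of the back. Each group had 2 libraries, and each library came from a pool of 3 tumors, so that p-values measure the spread between pools and not between mice. The labels place all tumors at day 5 after the graft, whereas a figure legend of the study gives day 3 for B16, and a difference in time between both tumor types was not tested.

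CCRL2 is an atypical receptor that binds the chemoattractant chemerin without known signalling and presents it to cells bearing the signalling receptor CMKLR1. A grafted tumor holds cancer cells, which come from the cell line, together with vessels, fibroblasts and leukocytes of the host. When oxygen is scarce, hypoxia-inducible factors escape degradation and switch on genes for glucose uptake, glycolysis, autophagy of mitochondria and vessel growth. A difference between tumors in the response to one host genotype can thus reside in the cancer cells, in the stroma, or in the proportion of each, and in bulk RNA fewer cells of a type and less RNA per cell cannot be told apart.

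Levels are in RPM (reads for each M reads that fell on genes), with replicate 1 before replicate 2. The deposited columns were estimated to rest on 19.88 and 17.6 M reads on genes for LLC KO, 30.84 and 28.48 M for LLC WT, 27.98 and 25.16 M for B16 KO, and 25.08 and 24.32 M for B16 WT, so the LLC KO libraries were the shallowest and the LLC WT libraries the deepest. Marker genes went with the tumor labels. The summed level of 16 melanocyte genes was 200 and 220 RPM in LLC KO pools and 202 and 225 RPM in LLC WT pools, against 25800 and 25100 RPM in B16 KO pools and 22400 and 21200 RPM in B16 WT pools. Conversely, the keratin gene Krt8 of simple epithelia stood at 227 and 197 RPM in LLC KO against 167 and 152 RPM in LLC WT, and at 0.05 RPM or less in every B16 pool. Tyrp1, a melanosome enzyme, was listed at 0 in every LLC pool.

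The deleted gene itself could not check the host genotype, because the grafted cells carry an intact copy. Ccrl2 had 11.45 and 5.15 RPM in LLC KO against 9.4 and 5.25 RPM in LLC WT, and 3.55 and 3.1 RPM in B16 KO against 4.25 and 3.8 RPM in B16 WT. The LLC pools overlapped between hosts, while both B16 KO pools lay slightly below both B16 WT pools. The difference between host effects was 0.37 (95% interval −0.85 to 1.58, adjusted p = 0.656), with an exact two-sided permutation p of 0.444 over 36 relabelings, the smallest possible being 0.0556. The sign of this difference turned to −0.17 without LLC KO replicate 1 and to −0.03 without LLC WT replicate 2. The chemerin gene Rarres2 (difference −0.29) and the receptor genes Cmklr1 (−0.60) and Gpr1 (−0.10) did not pass the test either, with adjusted p of 0.63, 0.345 and 0.939 in limma.

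Some libraries stood apart from their labels or their group. The Y-linked genes Ddx3y, Eif2s3y, Kdm5d and Uty had reads in LLC KO replicates 1 and 2 and were listed at 0 in the 6 remaining pools, so sex of the host or of the cells, handling and genotype cannot be told apart within LLC. The pool B16 WT replicate 1 held muscle RNA, with a summed level of 19 skeletal muscle genes of 1010 RPM, whereas the other 7 pools lay between 6.55 and 11.8 RPM. The columns of LLC WT were best described as rounded up, those of the other 6 libraries as rounded to the nearest whole number. In a principal component analysis, the first component (85.7% of the variance) separated the tumor types. The second (8.5%) set LLC KO (−41.92 and −29.59) against LLC WT (34.21 and 40.83), while B16 KO (−5.86 and −5.85) and B16 WT (3.37 and 4.81) lay between them.

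A gene is said to be called higher when its host effect was more positive in LLC than in B16 with an adjusted p under 0.05 in limma, and called lower when it was more negative. By this test, 1199 genes (8.15% of those tested) were called higher and 1037 (7.05%) were called lower, and 4955 genes (33.7%) had an unadjusted p under 0.05. The host effect within LLC passed the test for 2226 genes higher in KO hosts (15.1%) and 3402 lower (23.1%), together 38.3%, a split that became 2911 and 2408 with scaling by trimmed means of M-values. Within B16 no gene passed in limma (0.0%), while 1442 (9.81%) had an unadjusted p under 0.05.

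The difference came mostly from LLC. Over all genes tested, the median size of the host effect was 0.31 on the log2 scale in LLC and 0.12 in B16, and the size was larger in LLC for 75.3% of genes. Among called genes the share was 95.1%, with median sizes of 0.70 in LLC and 0.12 in B16. Of the called genes, 348 called higher and 214 called lower had a host effect of at least 1 on the log2 scale in LLC and of under 0.5 in B16, out of 916 tested genes of this profile. The reverse profile, with an effect of at least 1 in B16 and of under 0.5 in LLC, was rare among all genes tested (45). It was found for 7 called higher and 1 called lower. Opposite host effects of at least 0.5 each were found for 65 genes called higher and 14 called lower, together 79 genes (0.537% of those tested), out of 129 tested genes with such effects. Effects in the same direction of at least 0.5 each were found for 7 genes called higher and 11 called lower, out of 373 tested. All others, 772 called higher and 797 called lower, had a smaller effect in at least one tumor type.

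**Figure D1:**
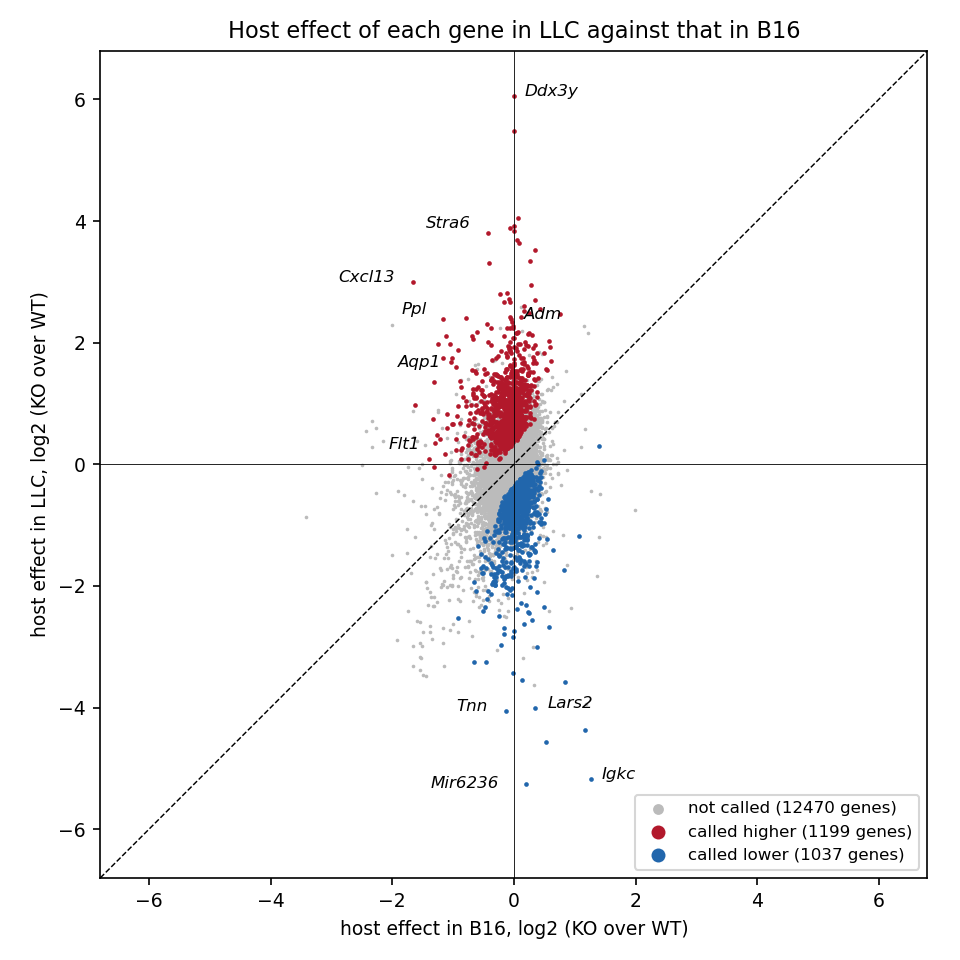
Host effect of each of the 14706 genes tested in B16 tumors (x axis) against that in LLC tumors (y axis), both as log2 of Ccrl2 KO over WT host, with genes called in the difference between host effects in color. The cloud is wider along the LLC axis than along the B16 axis, with an SD over genes of 0.60 in LLC and 0.26 in B16, and the called genes lie away from the diagonal.

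For every one of the 2236 called genes, the host effects of the pools did not overlap between tumor types, meaning that all 4 KO minus WT differences within LLC lay on one side of all 4 within B16. This was a common arrangement, found for 3446 genes in the higher direction (23.4%) and 3951 in the lower direction (26.9%) among all genes tested, together 50.3%. The number of calls depended on single libraries. It ranged from 219 to 1987 called higher and from 88 to 1664 called lower over the 8 fits that each left out 1 library. The highest counts, 1987 and 1664, came without LLC WT replicate 1. The lowest count of genes called higher, 219, came without B16 WT replicate 1, and the lowest count called lower, 88, without B16 WT replicate 2. Leaving out LLC KO replicate 1 gave 238 and 115, LLC KO replicate 2 gave 358 and 291, B16 KO replicate 1 gave 257 and 105, B16 KO replicate 2 gave 600 and 331, and B16 WT replicate 2 gave 242 called higher. In all 8 fits, 222 genes kept their call (1.51% of those tested), 173 called higher (1.18%) and 49 called lower (0.333%), and no called gene turned its sign. With LLC KO replicate 1 and B16 WT replicate 1 left out together, only the Y-linked Ddx3y and Eif2s3y were called. Genes called in all 8 fits are named as such.

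**Figure D2:**
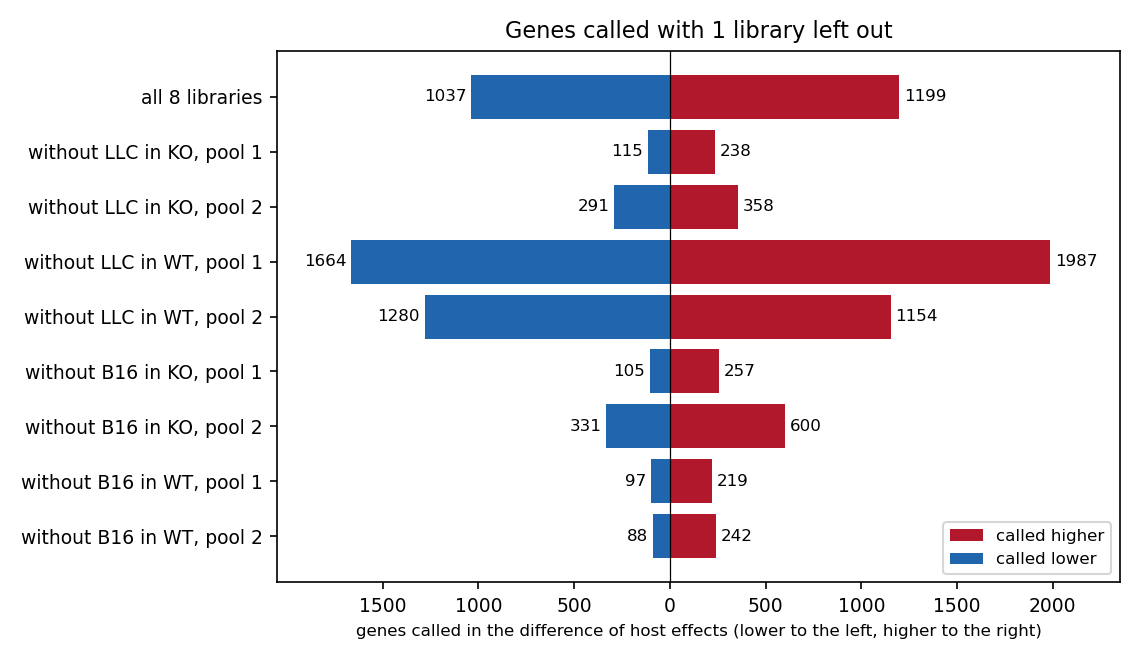
Number of genes called higher and called lower in the difference between host effects with all 8 libraries and with each library left out in turn. The counts with all libraries are 1199 and 1037, and the counts with 1 library left out range from 219 to 1987 and from 88 to 1664.

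Targets of hypoxia-inducible factors formed the group with the most calls in one direction. Of 25 genes of a hypoxia response list, all tested, 22 had an unadjusted p under 0.05 in the higher direction and 1 in the lower. Of the 25, 19 were called higher and none was called lower, beside 8.15% and 7.05% over all genes tested. Of these, 13 kept their call in all 8 fits, and between 13 and 21 members were called higher when 1 library was left out, the lowest number without LLC KO replicate 1 or B16 WT replicate 1. The median difference between host effects was 0.93 over the list and −0.05 over all genes tested. It was made up of a median host effect of 1.0 in LLC and of 0.16 in B16.

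The summed level of the 25 genes was 9700 and 10200 RPM in LLC KO pools against 4340 and 4470 RPM in LLC WT pools, and 10400 and 11600 RPM in B16 KO pools against 9320 and 10000 RPM in B16 WT pools. The LLC WT pools were thus the low group, and the LLC KO pools lay within the range of the 4 B16 pools. A core of the hypoxia response element, ACGTG or GCGTG read on either strand, was present in 23 of 28 RefSeq promoter windows matched to 19 list genes (82.1%), and in 59.9% of 13448 windows matched to 10512 of the tested genes. It was no more frequent among genes called higher (60.7%) than among genes called lower (60.4%), and the mitosis list reached 82.4%. The 150 bases upstream of the start site are shown for 4 list genes whose calls held in every fit, from RefSeq on GRCm38.p6, 5′ to 3′ on the strand of the gene, with the element cores on either strand in capitals. The windows are chr7:110627507-110627656, plus strand for Adm, chr4:119108595-119108744, plus strand for Slc2a1, chr7:138909507-138909656, minus strand for Bnip3 and chr8:124949255-124949404, minus strand for Egln1.
Adm: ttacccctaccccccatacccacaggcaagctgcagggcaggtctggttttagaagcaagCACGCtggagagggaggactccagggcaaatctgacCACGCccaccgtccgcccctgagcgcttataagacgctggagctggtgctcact
Slc2a1: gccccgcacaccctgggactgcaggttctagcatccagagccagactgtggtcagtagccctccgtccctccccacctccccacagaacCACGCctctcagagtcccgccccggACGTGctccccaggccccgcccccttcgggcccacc
Bnip3: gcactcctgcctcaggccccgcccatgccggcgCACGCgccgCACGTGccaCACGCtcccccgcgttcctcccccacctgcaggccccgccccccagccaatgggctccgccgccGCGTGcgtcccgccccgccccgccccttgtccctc
Egln1: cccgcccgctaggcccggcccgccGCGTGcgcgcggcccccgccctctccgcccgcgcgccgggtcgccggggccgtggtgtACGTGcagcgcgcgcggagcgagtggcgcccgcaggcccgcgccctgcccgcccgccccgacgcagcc

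Adm, shown above, encodes adrenomedullin, a peptide that dilates vessels and acts on endothelium. It had 139 and 156 RPM in LLC KO against 28.6 and 31.25 RPM in LLC WT, and 19.85 and 21.85 RPM in B16 KO against 19.75 and 22.2 RPM in B16 WT. Only the LLC pools separated by host, with host effects of 2.28 in LLC and −0.01 in B16 and a difference of 2.29 (95% interval 1.94 to 2.63, adjusted p = 0.00102), which stayed within 2.20 to 2.37 in the 8 fits. Ndrg1 (chr15:66929318-66969640, minus strand, GRCm38), a stress-responsive gene induced by hypoxia, had 605 and 756 RPM in LLC KO against 136 and 118 RPM in LLC WT, and 191 and 204 RPM in B16 KO against 178 and 185 RPM in B16 WT. The B16 pools of both hosts lay above LLC WT and well below LLC KO, and the difference was 2.29 (95% interval 1.91 to 2.68, adjusted p = 0.0014).

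Ero1l, the oxidase that forms disulfide bonds in the endoplasmic reticulum, had 1167 and 1455 RPM in LLC KO against 195 and 145 RPM in LLC WT, and 2129 and 2797 RPM in B16 KO against 1897 and 2106 RPM in B16 WT. The gene was thus abundant in all B16 pools and low in LLC WT, with a difference of 2.67 (95% interval 2.05 to 3.28, adjusted p = 0.00302). Bnip3 and Higd1a, encoding mitochondrial proteins of the hypoxic response, showed the same arrangement. Bnip3 had 461 and 472 RPM in LLC KO against 154 and 123 RPM in LLC WT, and 1232 and 1319 RPM in B16 KO against 1114.5 and 1194 RPM in B16 WT, with a difference of 1.61 (95% interval 1.25 to 1.97, adjusted p = 0.00301). Higd1a had 151.5 and 157 RPM in LLC KO against 66.7 and 67.3 RPM in LLC WT, and 611 and 638 RPM in B16 KO against 582 and 612 RPM in B16 WT, with a difference of 1.13 (95% interval 0.92 to 1.34, adjusted p = 0.00196). In both, LLC WT was the lowest group.

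Slc2a1, the glucose transporter GLUT1, and Egln1, the prolyl hydroxylase that marks hypoxia-inducible factors for degradation and is itself their target, were chosen after their values had been seen. Slc2a1 had 562.5 and 677 RPM in LLC KO against 179.55 and 139 RPM in LLC WT, and 412 and 406 RPM in B16 KO against 323 and 317 RPM in B16 WT, with a difference of 1.61 (95% interval 1.18 to 2.04, adjusted p = 0.00474). Egln1 had 286 and 325 RPM in LLC KO against 148 and 158 RPM in LLC WT, and 577 and 596 RPM in B16 KO against 516 and 527 RPM in B16 WT, with a difference of 0.83 (95% interval 0.56 to 1.09, adjusted p = 0.00857). All 7 genes named so far were called in each of the 8 fits. Vegfa, the main vascular growth factor of the list, did not pass: it had 307 and 304 RPM in LLC KO against 178 and 116 RPM in LLC WT, and 396 and 433 RPM in B16 KO against 333 and 346 RPM in B16 WT, with a difference of 0.80 (95% interval 0.24 to 1.36, adjusted p = 0.0609). Lox, a collagen cross-linking enzyme and also a member, had the opposite sign, at −1.06 (adjusted p = 0.0964, chosen after its values had been seen).

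**Figure D3:**
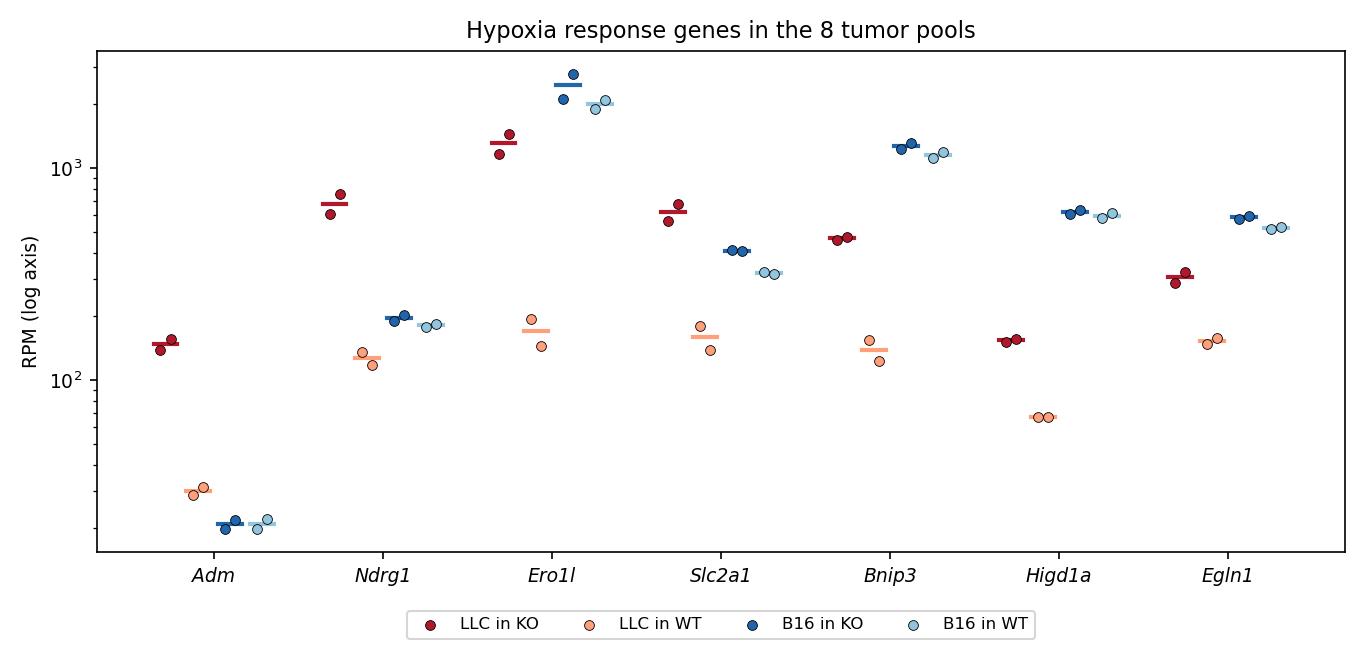
Level of 7 hypoxia response genes in each pool, in RPM on a log axis, for LLC KO, LLC WT, B16 KO and B16 WT, 1 point per pool. For every gene the LLC KO pools lie above the LLC WT pools. The B16 KO pools also lie above the B16 WT pools, by less, for Ndrg1, Ero1l, Slc2a1, Bnip3 and Egln1. For Adm and Higd1a the B16 pools of both hosts overlap.

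Glycolysis followed in part. Of 18 enzymes, 6 were called higher and 1 lower, beside 8.15% and 7.05% over all genes tested. The median difference was 0.29, with a median host effect of 0.60 in LLC and of 0.26 in B16. Pgk1, phosphoglycerate kinase, had 1672 and 1654 RPM in LLC KO against 824 and 789 RPM in LLC WT, and 3086 and 3027 RPM in B16 KO against 2610.3 and 2551 RPM in B16 WT, with a difference of 0.80 (95% interval 0.51 to 1.08, adjusted p = 0.0115). Gpi1, glucose-6-phosphate isomerase, had 1133 and 1164 RPM in LLC KO against 595 and 604 RPM in LLC WT, and 2632 and 2819 RPM in B16 KO against 2224 and 2334 RPM in B16 WT, with a difference of 0.68 (95% interval 0.40 to 0.96, adjusted p = 0.0158). For both, the KO pools lay above the WT pools in each tumor type, by more in LLC. Aldoc, a brain-type aldolase named after its values had been seen, was the exception, with 1.7 and 1.65 RPM in LLC KO against 1.95 and 2.85 RPM in LLC WT and 102 and 120.15 RPM in B16 KO against 84 and 78.15 RPM in B16 WT, and a difference of −0.84 (95% interval −1.39 to −0.30, adjusted p = 0.0497). The call of Aldoc was also lost with trimmed means of M-values, with median-of-ratios scaling and with GC and length trends removed (adjusted p = 0.0586, 0.057 and 0.122). None of the glycolysis calls was kept in all 8 fits: no member was called without LLC KO replicate 1 or 2, B16 KO replicate 1, or B16 WT replicate 1 or 2, while the differences themselves stayed within 0.77 to 0.83 for Pgk1, 0.63 to 0.73 for Gpi1 and −1.07 to −0.62 for Aldoc.

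In the 79 genes with opposite host effects, the fall or rise in B16 was not itself a call, since no gene passed the test within B16, and the test bears on the difference only. The 8 genes with the smallest adjusted p among those called higher were Aqp1, Man1a, Ntn1, Nr2f1, Calcrl, Emp2, Il1r1 and Mmp3, and all 8 kept their call in every leave-one-out fit. In each of them, both LLC KO pools lay above both LLC WT pools and both B16 KO pools lay below both B16 WT pools. The genes were picked for opposite fitted effects and the smallest adjusted p, so this separation largely follows from the choice.

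Aqp1 (chr6:55336432-55348555, plus strand), the water channel of endothelium and erythrocytes, had 325 and 332 RPM in LLC KO against 107 and 110.35 RPM in LLC WT, and 29.55 and 20.6 RPM in B16 KO against 50.35 and 45.8 RPM in B16 WT. Host effects were 1.59 in LLC and −0.95 in B16, a difference of 2.54 (95% interval 2.05 to 3.03, adjusted p = 0.00196). Calcrl (chr2:84330626-84425411, minus strand), which encodes the receptor of endothelial cells for adrenomedullin, had 46.2 and 47.75 RPM in LLC KO against 25.3 and 22.2 RPM in LLC WT, and 7.2 and 7.2 RPM in B16 KO against 11.35 and 11.45 RPM in B16 WT, a difference of 1.60 (95% interval 1.25 to 1.95, adjusted p = 0.00292). Its ligand gene Adm rose in LLC KO as given above and did not separate by host in B16, so ligand and receptor transcripts both were higher in LLC KO than in LLC WT.

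Man1a, a mannosidase of the Golgi that trims N-glycans, had 463 and 487 RPM in LLC KO against 152 and 184 RPM in LLC WT, and 27.9 and 35.25 RPM in B16 KO against 45.35 and 51.6 RPM in B16 WT, a difference of 2.12 (95% interval 1.68 to 2.57, adjusted p = 0.00241). Ntn1, the secreted guidance cue netrin-1, had 392 and 378 RPM in LLC KO against 179 and 169 RPM in LLC WT, and 3.2 and 4.15 RPM in B16 KO against 6.35 and 5.85 RPM in B16 WT, a difference of 1.82 (95% interval 1.43 to 2.20, adjusted p = 0.00261). Nr2f1, an orphan nuclear receptor, had 23.1 and 21.65 RPM in LLC KO against 9.8 and 9.7 RPM in LLC WT, and 12.1 and 11.55 RPM in B16 KO against 16.95 and 17.5 RPM in B16 WT, a difference of 1.68 (95% interval 1.34 to 2.02, adjusted p = 0.00232). Unlike Ntn1, which was abundant in LLC and scarce in B16, Nr2f1 was of a comparable level in both.

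Il1r1, the signalling receptor for interleukin-1, had 284 and 285 RPM in LLC KO against 158 and 132 RPM in LLC WT, and 9.7 and 12.3 RPM in B16 KO against 18 and 18.4 RPM in B16 WT, a difference of 1.69 (95% interval 1.27 to 2.10, adjusted p = 0.0037). Mmp3, stromelysin-1, a protease of stromal cells that is induced by interleukin-1, had 589 and 434 RPM in LLC KO against 175 and 94.5 RPM in LLC WT, and 16.15 and 16.55 RPM in B16 KO against 36.4 and 43.1 RPM in B16 WT, a difference of 3.22 (95% interval 2.34 to 4.10, adjusted p = 0.00503). Emp2, a membrane protein of epithelia, had 123 and 124 RPM in LLC KO against 69.75 and 58 RPM in LLC WT, and 2.5 and 1.95 RPM in B16 KO against 4.45 and 4.85 RPM in B16 WT, a difference of 1.88 (95% interval 1.42 to 2.34, adjusted p = 0.0037). A further pair of genes of this profile were among the largest differences called, and also held in all 8 fits. Cxcl13, a chemokine that attracts B cells, had 23.4 and 43.8 RPM in LLC KO against 5.6 and 2.2 RPM in LLC WT, and 5.55 and 8.4 RPM in B16 KO against 17.8 and 28.8 RPM in B16 WT, a difference of 4.66 (95% interval 3.18 to 6.14, adjusted p = 0.00821). Ppl, periplakin, a protein of cell junctions, had 17.1 and 22.3 RPM in LLC KO against 4.25 and 2.55 RPM in LLC WT, and 0.45 and 1.25 RPM in B16 KO against 2.2 and 2.6 RPM in B16 WT, a difference of 3.56 (95% interval 2.48 to 4.64, adjusted p = 0.00698).

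**Figure D4:**
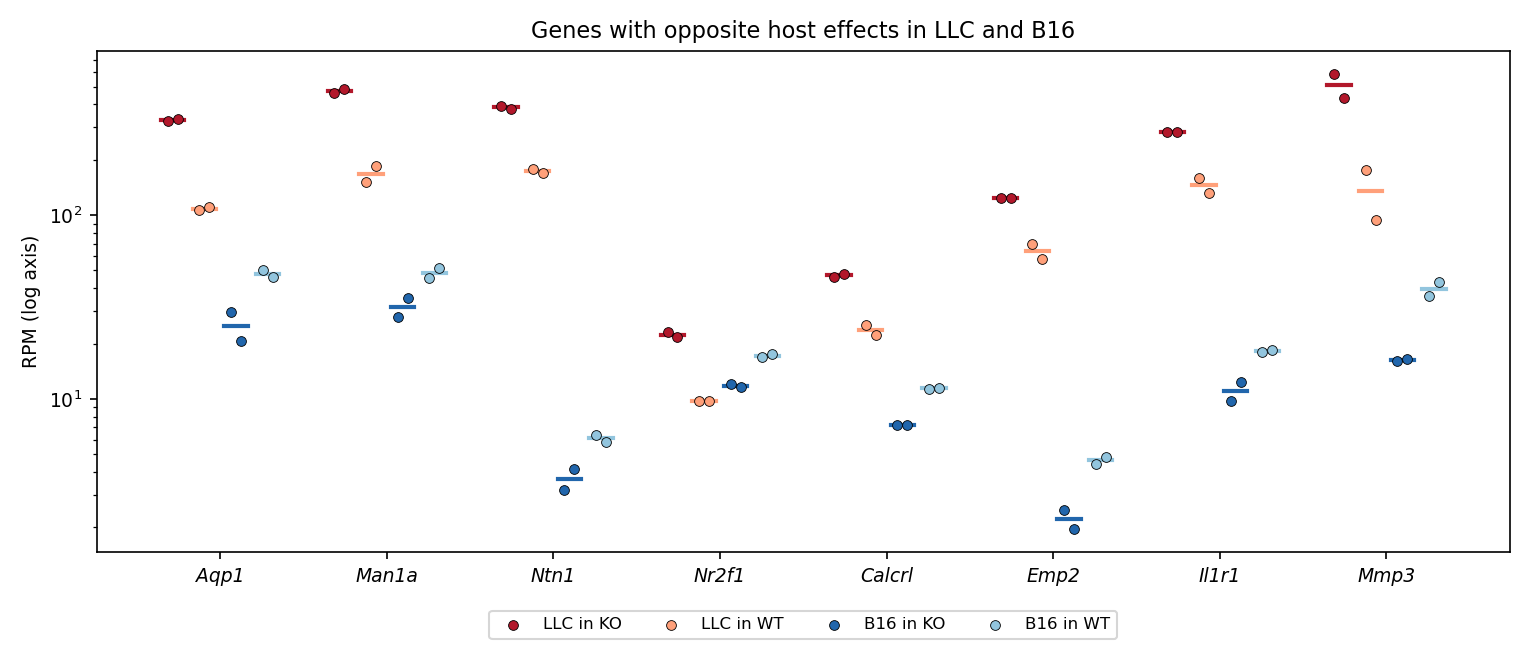
Level of 8 genes with opposite host effects in each pool, in RPM on a log axis, for LLC KO, LLC WT, B16 KO and B16 WT, 1 point per pool. In each gene the LLC KO pools lie above LLC WT, and the B16 KO pools lie below B16 WT.

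In the reverse direction, lower in KO hosts in LLC and higher in B16, 14 genes were called. Fads2, the delta-6 desaturase of fatty acids, had 5.75 and 4.6 RPM in LLC KO against 11 and 14.65 RPM in LLC WT, and 85.7 and 79.5 RPM in B16 KO against 60 and 52.45 RPM in B16 WT, a difference of −1.78 (95% interval −2.31 to −1.25, adjusted p = 0.00684), and its call held in all 8 fits. The other named genes of this direction did not hold in every fit. Fibin, a secreted protein gene, had 5.35 and 4.5 RPM in LLC KO against 27.6 and 42 RPM in LLC WT, and 5.6 and 13.35 RPM in B16 KO against 5.05 and 6.35 RPM in B16 WT, a difference of −3.25 (95% interval −4.46 to −2.04, adjusted p = 0.0127) that was not called without either B16 WT replicate, with values of −3.84 to −2.66 over the fits. Antibody genes were among them. Igkc, the constant part of kappa light chains, had 0.25 and 2.95 RPM in LLC KO against 124 and 26.8 RPM in LLC WT, and 74.25 and 84.45 RPM in B16 KO against 40.55 and 26.35 RPM in B16 WT, a difference of −6.45 (95% interval −9.12 to −3.77, adjusted p = 0.0159) which ranged over −7.55 to −5.34 and was not called without LLC KO replicate 1, either B16 KO replicate or either B16 WT replicate. LLC WT replicate 1 had the highest level and differed from replicate 2 of its group by more than any B16 pair did. Jchain, which joins IgA and IgM polymers, had 0.1 and 1 RPM in LLC KO against 31.45 and 3.55 RPM in LLC WT, and 18.3 and 20.1 RPM in B16 KO against 11.75 and 9.45 RPM in B16 WT, with a difference of −4.42 (95% interval −7.19 to −1.64, adjusted p = 0.0458) over a range of −5.91 to −2.93, lost without either LLC KO replicate, either B16 KO replicate or either B16 WT replicate.

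Few called genes owed their difference mainly to B16, a profile that only 45 tested genes had. Clec1a (chr6:129424772-129452000, minus strand), a C-type lectin of endothelial and myeloid cells, had 36.3 and 31.95 RPM in LLC KO against 26 and 22.8 RPM in LLC WT, and 0.5 and 0.5 RPM in B16 KO against 2.05 and 1.75 RPM in B16 WT. Host effects were 0.48 in LLC and −1.26 in B16, the difference was 1.74 (95% interval 1.24 to 2.23, adjusted p = 0.00599), and the gene was the only one of this profile whose call held in all 8 fits. Col18a1, which encodes the basement membrane collagen whose fragment is endostatin, had 1021 and 826 RPM in LLC KO against 954 and 931 RPM in LLC WT, and 10.3 and 9.35 RPM in B16 KO against 30.05 and 20.9 RPM in B16 WT. The LLC pools of both hosts overlapped, and the difference of 1.27 (95% interval 0.73 to 1.82, adjusted p = 0.0177) ranged over 1.02 to 1.53 and was not called without LLC KO replicate 1 or either B16 KO replicate. Flt1, a receptor for vascular endothelial growth factor, had 22.6 and 29.45 RPM in LLC KO against 25.15 and 16.05 RPM in LLC WT, and 6.9 and 6.25 RPM in B16 KO against 21.6 and 13.25 RPM in B16 WT. Its difference of 1.65 (95% interval 0.75 to 2.56, adjusted p = 0.0327) was called in 1 of the 8 fits only, that without LLC WT replicate 1, and ranged over 1.31 to 2.00. Podxl, an endothelial and podocyte sialomucin chosen after its values had been seen, resembled Flt1, with 28.65 and 36.1 RPM in LLC KO against 35.8 and 22.7 RPM in LLC WT, and 5.5 and 6.1 RPM in B16 KO against 15.55 and 11.35 RPM in B16 WT, a difference of 1.30 (95% interval 0.52 to 2.09, adjusted p = 0.0411) and a range of 0.98 to 1.63. It too was called only without LLC WT replicate 1.

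Cell division genes were called in the lower direction. Of 22 mitosis genes, 9 were called lower and none higher, and of 23 DNA replication genes, 7 were called lower and none higher. Over all genes tested, the shares were 7.05% lower and 8.15% higher. The median difference was −0.48 for mitosis, with median host effects of −0.71 in LLC and −0.13 in B16, and −0.50 for DNA replication, with −0.62 and −0.12. The summed level of the mitosis genes was 1460 and 1340 RPM in LLC KO pools against 2240 and 1880 RPM in LLC WT pools, and 2440 and 2160 RPM in B16 KO pools against 2680 and 2450 RPM in B16 WT pools. LLC KO was the low group, and B16 KO and B16 WT nearly touched. The calls of both lists depended on single libraries, with 1 to 12 mitosis genes called lower and 0 to 11 replication genes when 1 library was left out. The lowest numbers came without B16 WT replicate 2, and for replication also without LLC KO replicate 1, and the medians stayed between −0.69 and −0.28 for mitosis and between −0.60 and −0.36 for replication.

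Many genes expressed at mitosis carry a cell cycle homology region, to which the DREAM and FOXM1 complexes bind. Its letters, TTTGAA or TTCGAA on either strand, were found in 13 of 17 windows of the mitosis list (76.5%) and in 14.0% of the windows of tested genes, but in 14.2% of those of genes called lower, which is the background share. Each stretch of 30 bases holds the match in capitals, from RefSeq on GRCm38.p6, 5′ to 3′ on the gene's strand, for 5 called genes of the list. They lie at chr2:118598011-118598040, plus strand (Bub1b), chr2:172370521-172370550, minus strand (Aurka), chr4:118437344-118437373, minus strand (Cdc20), chr7:122159453-122159482, plus strand (Plk1) and chr9:70421704-70421733, minus strand (Ccnb2).
Bub1b: tctctccctgggTTCGAAggcttgtcttag
Aurka: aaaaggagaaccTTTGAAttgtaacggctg
Cdc20: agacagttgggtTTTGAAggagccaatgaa
Plk1: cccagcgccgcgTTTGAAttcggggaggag
Ccnb2: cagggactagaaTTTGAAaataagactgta

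Cdc20, the activator of the anaphase-promoting complex, had 41.9 and 41.5 RPM in LLC KO against 88.9 and 81.3 RPM in LLC WT, and 61 and 47.4 RPM in B16 KO against 57.9 and 55.7 RPM in B16 WT, a difference of −0.94 (95% interval −1.33 to −0.55, adjusted p = 0.0156). Plk1, a mitotic kinase, had 24.2 and 19.95 RPM in LLC KO against 59.1 and 49 RPM in LLC WT, and 69.85 and 55.2 RPM in B16 KO against 70.35 and 67.6 RPM in B16 WT, a difference of −1.12 (95% interval −1.61 to −0.64, adjusted p = 0.0175). In both, the LLC KO pools were lower than the LLC WT pools and the B16 pools overlapped. Cdc20 was not called without either LLC KO replicate or either B16 WT replicate (−1.12 to −0.76 over the fits), nor Plk1 without LLC KO replicate 2, B16 KO replicate 1 or either B16 WT replicate (−1.29 to −0.96). The kinase gene Aurka had a difference of −0.83 (95% interval −1.21 to −0.44, adjusted p = 0.0223), and Bub1b and Ccnb2, chosen after their values had been seen, had −0.70 (adjusted p = 0.0334) and −0.75 (adjusted p = 0.0274). The call of Aurka was lost without either LLC KO replicate, B16 KO replicate 1 or either B16 WT replicate, over a range of −0.96 to −0.69. Among replication genes, Mcm5, a subunit of the replicative helicase, had 58.15 and 59.15 RPM in LLC KO against 94.1 and 93 RPM in LLC WT, and 106 and 95 RPM in B16 KO against 98.45 and 89.85 RPM in B16 WT, a difference of −0.76 (95% interval −1.03 to −0.50, adjusted p = 0.0107). Its call was lost without LLC KO replicate 1 or B16 WT replicate 2 (−0.84 to −0.68).

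In cholesterol synthesis, 6 of 18 genes were called lower and none higher, beside 7.05% and 8.15% over all genes tested. An unadjusted p under 0.05 in the lower direction was found for 14. The median difference was −0.68, from a median host effect of −0.62 in LLC and 0.13 in B16, and it stayed between −0.83 and −0.52 in the 8 fits, while the number called ranged from 0, without B16 KO replicate 1 or B16 WT replicate 2, to 8, without LLC WT replicate 2. Dhcr7, which catalyses the last step of the pathway, had 10.45 and 9.65 RPM in LLC KO against 18.65 and 21.65 RPM in LLC WT, and 105 and 84.8 RPM in B16 KO against 87.7 and 77.2 RPM in B16 WT, a difference of −1.16 (95% interval −1.59 to −0.73, adjusted p = 0.0125), not called without B16 KO replicate 1 or B16 WT replicate 2 (−1.31 to −1.01). Sqle, squalene epoxidase, had 37.65 and 34.6 RPM in LLC KO against 60.1 and 52.8 RPM in LLC WT, and 111 and 105 RPM in B16 KO against 104.5 and 89.25 RPM in B16 WT, a difference of −0.79 (95% interval −1.13 to −0.45, adjusted p = 0.0179), not called without either LLC KO replicate, B16 KO replicate 1 or B16 WT replicate 2 (−0.90 to −0.68). In both genes LLC KO lay below LLC WT, and B16 KO and B16 WT overlapped or lay apart by little.

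Respiratory genes of the nucleus and of the mitochondrion were counted apart, beside 7.05% called lower and 8.15% called higher over all genes tested. Of 24 nuclear genes of oxidative phosphorylation, 8 were called lower and none higher, with a median of −0.33, and 0 to 12 were called lower in the leave-one-out fits, the lowest without B16 WT replicate 2. Uqcrc1, a subunit of complex III, had 127 and 126 RPM in LLC KO against 178 and 182 RPM in LLC WT, and 227 and 203 RPM in B16 KO against 199.9 and 193 RPM in B16 WT, a difference of −0.64 (95% interval −0.87 to −0.40, adjusted p = 0.0127), lost without LLC KO replicate 1 or either B16 WT replicate (−0.72 to −0.56). Of 13 mitochondrially encoded mRNAs, 1 was called higher, at a median of 0.59 that ranged from 0.14 without LLC WT replicate 2 to 0.99 without LLC WT replicate 1, and that was −0.03 after trends of GC content and length had been removed. The mitochondrial sum was 23500 and 19500 RPM in LLC KO pools against 25200 and 15000 RPM in LLC WT pools, and 26500 and 32700 RPM in B16 KO pools against 33500 and 32500 RPM in B16 WT pools, so that the LLC WT pools enclosed the LLC KO pools. Ribosomal protein genes had 3 of 25 called higher, with a median of 0.35 (0.19 without LLC WT replicate 2), beside 8.15% called higher over all genes tested. The pools of 21 did not overlap in this direction, an arrangement found for 23.4% of all genes tested. None of the 25 was called in 6 of the leave-one-out fits, the exceptions being those without LLC WT replicate 1 (18 called) or LLC WT replicate 2 (6 called), and 10 were called with trimmed means of M-values.

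Lymphocyte genes had lower host effects in LLC than in B16. Of 11 T cell genes that passed the filter, out of 17 on the list, 8 were called lower, and of 15 genes of NK and cytotoxic cells, 7 were called lower, with none called higher in either list. Over all genes tested, the shares were 7.05% lower and 8.15% higher. Median differences were −1.52 and −1.71. The T cell genes summed to 3.95 and 7.25 RPM in LLC KO pools against 31.5 and 22.5 RPM in LLC WT pools, and to 23.7 and 28.7 RPM in B16 KO pools against 20.3 and 26.6 RPM in B16 WT pools. The NK list summed to 19.1 and 30.3 RPM in LLC KO pools against 138 and 88.5 RPM in LLC WT pools, and to 100 and 111 RPM in B16 KO pools against 80.3 and 141 RPM in B16 WT pools. Both sums were low in the LLC KO pools alone, and the B16 pools of both hosts overlapped.

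Il2rb, the beta chain of the receptors for interleukins 2 and 15, had 1.85 and 2.65 RPM in LLC KO against 14.7 and 11.45 RPM in LLC WT, and 11.55 and 12.9 RPM in B16 KO against 8.4 and 13.3 RPM in B16 WT. Its difference of −2.51 (95% interval −3.32 to −1.69, adjusted p = 0.00868) held in all 8 fits, with a range of −2.82 to −2.19, and it was the only gene of these 2 lists to do so. Prf1, perforin, had 0.8 and 1.5 RPM in LLC KO against 10.05 and 6.2 RPM in LLC WT, and 8.6 and 12.55 RPM in B16 KO against 8.2 and 12.2 RPM in B16 WT, a difference of −2.43 (95% interval −3.51 to −1.36, adjusted p = 0.0188). Lck, the kinase of the T cell receptor, had 0.6 and 1.25 RPM in LLC KO against 5.65 and 4.4 RPM in LLC WT, and 4.55 and 3.4 RPM in B16 KO against 4.55 and 5.45 RPM in B16 WT, a difference of −1.68 (95% interval −2.54 to −0.82, adjusted p = 0.0272). These are low levels, so that few reads underlie each value. Prf1 and Lck were not called without LLC KO replicate 1 or any B16 library, with ranges of −2.76 to −2.11 and −2.01 to −1.34. The number of calls in the leave-one-out fits was 0 to 8 for T cells, with none without LLC KO replicate 1, B16 KO replicate 2 or B16 WT replicate 1, and 1 to 8 for NK cells, while the medians stayed between −1.79 and −1.34 and between −1.90 and −1.16. Of 8 B and plasma cell genes tested, 3 were called lower, with a median of −2.03 that ranged from −2.72 to −0.93, the weakest without LLC WT replicate 1, and with 0 to 5 calls.

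Mast cell genes went the other way, with a median of 2.32. Of 12, 8 were called higher and none lower, beside 8.15% and 7.05% over all genes tested. Their sum was 202 and 398 RPM in LLC KO pools against 140 and 70.8 RPM in LLC WT pools, and 20 and 15 RPM in B16 KO pools against 31.9 and 24 RPM in B16 WT pools. KO pools were thus above WT pools in LLC and below them in B16, with a wide spread between the LLC KO pools. Cpa3, mast cell carboxypeptidase, had 29.4 and 71.85 RPM in LLC KO against 15.45 and 6.8 RPM in LLC WT, and 0.7 and 1.05 RPM in B16 KO against 2.9 and 2.05 RPM in B16 WT, a difference of 3.22 (95% interval 1.66 to 4.78, adjusted p = 0.024), not called without LLC KO replicate 2, either B16 KO replicate or either B16 WT replicate (2.58 to 3.86). Tpsb2, a mast cell tryptase, had 20.25 and 59.1 RPM in LLC KO against 12.6 and 5.55 RPM in LLC WT, and 1.35 and 1.85 RPM in B16 KO against 4.05 and 3.6 RPM in B16 WT, a difference of 3.03 (95% interval 1.37 to 4.70, adjusted p = 0.0327), not called without LLC KO replicate 2, LLC WT replicate 2, either B16 KO replicate or either B16 WT replicate (2.27 to 3.79). No mast cell gene was called without LLC KO replicate 2 or any one of the B16 libraries, with medians of 1.77 to 3.06 over the 8 fits.

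Genes of antigen presentation were also called lower, beside 7.05% called lower and 8.15% called higher over all genes tested. Of 14 MHC class I genes 5 were called lower, of 8 MHC class II genes 2 were called lower, and none was called higher, with medians of −0.77 and −0.99, the second −0.63 without LLC WT replicate 2. H2-K1, a classical class I heavy chain whose reads can be shared with its close relatives, had 352 and 516 RPM in LLC KO against 1039.7 and 1007 RPM in LLC WT, and 1008.5 and 1035 RPM in B16 KO against 880.3 and 1166 RPM in B16 WT, a difference of −1.27 (95% interval −1.89 to −0.66, adjusted p = 0.0243). Tap1, the peptide transporter, had 36.8 and 42.45 RPM in LLC KO against 97.85 and 79.6 RPM in LLC WT, and 101 and 111 RPM in B16 KO against 100 and 115.5 RPM in B16 WT, a difference of −1.12 (95% interval −1.54 to −0.71, adjusted p = 0.0125). In both, only the LLC pools separated by host. H2-K1 was not called without LLC KO replicate 1, either B16 KO replicate or either B16 WT replicate (−1.55 to −1.0), nor Tap1 without LLC KO replicate 1 or B16 WT replicate 1 (−1.27 to −0.98). None of the class II genes was called with trimmed means of M-values. In no fit without 1 library were more than 6 genes of either list called, and none was called without LLC KO replicate 1 or B16 WT replicate 1.

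Of 32 interferon response genes, none was called in limma, 8 had an unadjusted p under 0.05, all in the lower direction, and 31 of 32 differences were negative, with a median of −0.72. The list summed to 1010 and 1480 RPM in LLC KO pools against 3230 and 1820 RPM in LLC WT pools, and to 2060 and 2210 RPM in B16 KO pools against 2340 and 2660 RPM in B16 WT pools. LLC WT replicate 1 stood far above replicate 2. Without LLC WT replicate 2 the median was −1.13 with 17 genes called lower, and without LLC WT replicate 1 it was −0.25 with none called. Gbp4, a guanylate-binding protein with the smallest adjusted p of the list, had 2.4 and 4.3 RPM in LLC KO against 14.95 and 7.25 RPM in LLC WT, and 15.4 and 20.8 RPM in B16 KO against 14.45 and 20.45 RPM in B16 WT, a difference of −1.61 (95% interval −2.83 to −0.39, adjusted p = 0.076).

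Myeloid genes showed no common direction. Of 18 macrophage genes, 1 was called higher, the mannose receptor Mrc1, with a difference of 1.05 (95% interval 0.52 to 1.59, adjusted p = 0.0267) that was not called without either LLC KO replicate, B16 KO replicate 1 or either B16 WT replicate (0.79 to 1.32), and of 10 neutrophil genes tested 1 was called higher and 3 lower. The collagenase Mmp8 and the gelatinase Mmp9 of neutrophils were called lower in all 8 fits. Mmp9 had 25.85 and 24 RPM in LLC KO against 89.1 and 112 RPM in LLC WT, and 5.95 and 8.2 RPM in B16 KO against 8.25 and 7.95 RPM in B16 WT, a difference of −1.78 (95% interval −2.34 to −1.23, adjusted p = 0.00754), and Mmp8 had 1.45 and 0.95 RPM in LLC KO against 13.85 and 11.5 RPM in LLC WT, and 0.65 and 1.15 RPM in B16 KO against 0.95 and 1.25 RPM in B16 WT, a difference of −2.75 (95% interval −3.56 to −1.95, adjusted p = 0.00656). The LLC WT pools were highest for both. Of 9 dendritic cell genes tested, 1 was called higher and 1 lower. Over all genes tested, 8.15% were called higher and 7.05% lower.

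Among inflammatory mediators, of which 22 of 24 were tested and several are named by the study, 2 were called higher and 2 lower. These are shares close to the 8.15% and 7.05% over all genes tested. The median was 0.74 and ranged from 0.27 without LLC WT replicate 2 to 1.32 without LLC WT replicate 1. By qRT-PCR, the study saw no significant change between hosts in B16 and LLC tumors for mediators that include CCL2, MMP9 and MMP10. That compares hosts by another method, and is a different measure from the difference between host effects tested here. In the sequencing, the host effect within LLC passed in limma for 7 mediators higher and 2 lower, beside 15.1% and 23.1% over all genes tested. Mmp9 was among the lower (−1.98, adjusted p = 0.000483 in limma). Within B16 no gene passed. Besides Mmp9, the chemokine gene Cxcl12 was called lower, with 19.1 and 28.35 RPM in LLC KO against 129 and 78.45 RPM in LLC WT, and 34.3 and 49.65 RPM in B16 KO against 65.65 and 62.1 RPM in B16 WT, a difference of −1.47 (95% interval −2.38 to −0.56, adjusted p = 0.0443), called in 1 leave-one-out fit only, that without LLC WT replicate 2, with a range of −1.83 to −1.11. Mmp10, stromelysin-2, and Lif, leukemia inhibitory factor, were called higher. Lif had 71.7 and 70.55 RPM in LLC KO against 34.7 and 19.45 RPM in LLC WT, and 8.8 and 9.45 RPM in B16 KO against 7.85 and 10.6 RPM in B16 WT, a difference of 1.44 (95% interval 0.61 to 2.26, adjusted p = 0.0364), not called without either LLC KO replicate, either B16 KO replicate or either B16 WT replicate (1.03 to 1.85). Mmp10 had 10.9 and 6.8 RPM in LLC KO against 2.25 and 1.55 RPM in LLC WT, and at most 0.30 RPM in every B16 pool, a difference of 2.04 (95% interval 1.06 to 3.02, adjusted p = 0.0237), not called without LLC KO replicate 1, either B16 KO replicate or either B16 WT replicate (1.72 to 2.36). Since Mmp10 was close to 0 in B16, its B16 host effect carries little information. Ccl2, a monocyte chemoattractant, and Ptgs2, inducible cyclooxygenase, did not pass. Ptgs2 had 366 and 337 RPM in LLC KO against 133 and 44.15 RPM in LLC WT, and 18.55 and 9.3 RPM in B16 KO against 11.05 and 12.9 RPM in B16 WT, a difference of 2.05 (95% interval 0.48 to 3.63, adjusted p = 0.0784), and Ccl2 a difference of 1.63 (95% interval 0.40 to 2.86, adjusted p = 0.0739).

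Of 34 blood endothelium genes, 2 were called higher (Calcrl and Flt1, described above) and 2 lower, shares close to the 8.15% and 7.05% over all genes tested, with a median difference of −1.0 from median host effects of −2.32 in LLC and −1.20 in B16, hence in the same direction in both tumor types. The sums were 530 and 763 RPM in LLC KO pools against 1280 and 1580 RPM in LLC WT pools, and 432 and 432 RPM in B16 KO pools against 771 and 645 RPM in B16 WT pools. The KO pools were lower than the WT pools in each tumor type. The median depended on one pool: it was −0.11, with 1 called each way, without LLC KO replicate 1 and −2.07, with 15 called lower, without LLC KO replicate 2. Eng, endoglin, a coreceptor for transforming growth factor beta on endothelium, was the one member called lower in all 8 fits, with 63.2 and 71 RPM in LLC KO against 116.5 and 116 RPM in LLC WT, and 158 and 159 RPM in B16 KO against 152.5 and 135 RPM in B16 WT, a difference of −0.93 (95% interval −1.21 to −0.66, adjusted p = 0.00684). Ecscr, another endothelial membrane protein, had 1.55 and 3.85 RPM in LLC KO against 11.55 and 9.1 RPM in LLC WT, and 14.6 and 13 RPM in B16 KO against 16.75 and 13.95 RPM in B16 WT, a difference of −1.70 (95% interval −2.76 to −0.65, adjusted p = 0.0443), called only without LLC KO replicate 2 among the leave-one-out fits, with a range of −2.25 to −1.16. Of pericyte and smooth muscle genes, 1 of 14 tested was called lower, which is about the share over all genes, at a median of −0.61 that was 0.12 without LLC KO replicate 1, and of 4 lymphatic endothelium genes tested none was called in limma, with 1 at an unadjusted p under 0.05.

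Of 17 angiogenic ligands, 4 were called higher and none lower, beside 8.15% and 7.05% over all genes tested. Of all 17 differences, 8 were positive and 9 negative. The median was −0.08, and its sign turned with single libraries, to 0.36 without B16 KO replicate 2 and to 0.29 without LLC KO replicate 1. It ranged down to −0.19 without B16 WT replicate 2. Pgf, placental growth factor, a ligand of Flt1, had 29.5 and 40.6 RPM in LLC KO against 4.6 and 5.2 RPM in LLC WT, and 19.25 and 24.75 RPM in B16 KO against 17.05 and 16.95 RPM in B16 WT, a difference of 2.35 (95% interval 1.76 to 2.94, adjusted p = 0.00418) that held in all 8 fits. It was the largest difference in host effect among the called ligands, and both LLC KO pools stood above every other pool. Apln, apelin, had 98.15 and 119.75 RPM in LLC KO against 76.65 and 57 RPM in LLC WT, and 33.4 and 36.45 RPM in B16 KO against 41.4 and 39.7 RPM in B16 WT, a difference of 0.92 (95% interval 0.43 to 1.41, adjusted p = 0.0305). Vegfc, the lymphatic growth factor, had 16.65 and 16.75 RPM in LLC KO against 9 and 7.45 RPM in LLC WT, and 11.3 and 9.4 RPM in B16 KO against 10.3 and 9.9 RPM in B16 WT, a difference of 0.96 (95% interval 0.48 to 1.43, adjusted p = 0.0251). Angpt1, a stabilizing ligand of the receptor TIE2, had 7.6 and 7.15 RPM in LLC KO against 6.3 and 5.35 RPM in LLC WT, and 0.45 and 0.5 RPM in B16 KO against 1.2 and 1.1 RPM in B16 WT, a difference of 1.08 (95% interval 0.55 to 1.60, adjusted p = 0.0244), with host effects of 0.32 in LLC and −0.76 in B16. Apln, Vegfc and Angpt1 were called without either LLC WT replicate and in no other leave-one-out fit, over ranges of 0.71 to 1.13, 0.83 to 1.08 and 0.97 to 1.19. Fgf2, basic fibroblast growth factor, had a difference of 0.28 (95% interval −0.57 to 1.13, adjusted p = 0.624) and was not called, its sign turning to −0.02 without B16 KO replicate 1.

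Fibroblast genes were called in both directions, beside 8.15% called higher and 7.05% called lower over all genes tested. Of 23, 7 were called lower and 2 higher, with a median of −0.80 that ranged from −1.18 (LLC WT replicate 1 left out) to −0.41 (LLC WT replicate 2 left out), but 3 were called lower with trimmed means of M-values, and 2 to 13 when 1 library was left out, the highest number without LLC WT replicate 1. Tnn, tenascin-N, had 0.65 and 0.8 RPM in LLC KO against 25.2 and 15.6 RPM in LLC WT, and at most 0.10 RPM in every B16 pool, a difference of −3.92 (95% interval −4.73 to −3.12, adjusted p = 0.00232), and Fbln1, fibulin-1, had 33.2 and 40.35 RPM in LLC KO against 85.15 and 101 RPM in LLC WT, and 209 and 199 RPM in B16 KO against 193.5 and 181 RPM in B16 WT, a difference of −1.45 (95% interval −1.83 to −1.07, adjusted p = 0.00439). Both held in all 8 fits and were low in LLC KO relative to LLC WT. Tnn reached 1 RPM only in the LLC WT pools and passed the filter through these pools alone. Since Tnn was close to 0 in B16, its B16 host effect carries little information. The major collagen gene Col1a1, chosen after its values had been seen, had 2168 and 2415 RPM in LLC KO against 5771.5 and 9699.6 RPM in LLC WT, and 263 and 252 RPM in B16 KO against 341 and 415 RPM in B16 WT, a difference of −1.16 (95% interval −1.89 to −0.44, adjusted p = 0.0453), lost without either LLC KO replicate, either B16 KO replicate or either B16 WT replicate (−1.54 to −0.79). Conversely, the matrix genes Dcn, decorin, and Dpt, dermatopontin, the second chosen after its values had been seen, were called higher. Dcn had 1663 and 1634 RPM in LLC KO against 850.4 and 1287 RPM in LLC WT, and 143 and 217 RPM in B16 KO against 253 and 304 RPM in B16 WT, a difference of 1.31 (95% interval 0.54 to 2.08, adjusted p = 0.039), lost without either LLC KO replicate, B16 KO replicate 1 or either B16 WT replicate (1.01 to 1.61), and Dpt had a difference of 1.57 (95% interval 0.57 to 2.57, adjusted p = 0.0475), lost without either LLC KO replicate, LLC WT replicate 1, B16 KO replicate 1 or either B16 WT replicate (1.17 to 1.97). The share called higher was close to that over all genes tested, and no member was called higher with GC and length trends removed. The median LLC host effect of the list, −0.97, covers genes of both directions.

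**Figure D5:**
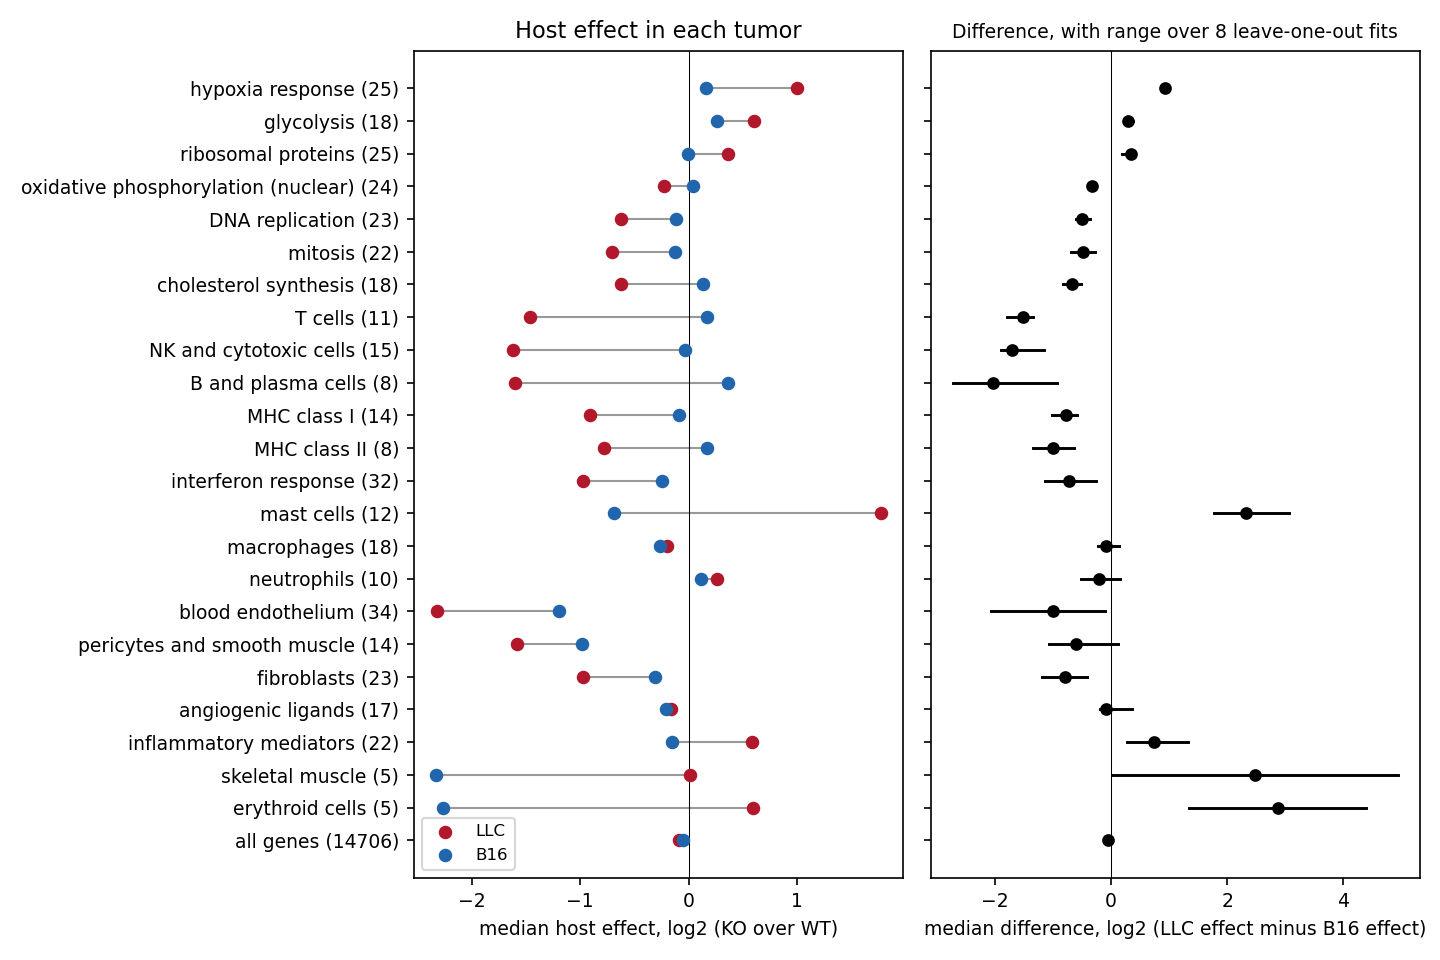
Median host effect of 24 gene lists in LLC and in B16 (left) and median difference between both host effects (right), on the log2 scale, with the range over the 8 fits that each left out 1 library as a line. The hypoxia response, mast cell and inflammatory mediator lists have positive medians, and the lymphocyte, MHC and mitosis lists have negative medians in all 8 fits, whereas the line of the pericyte list crosses 0.

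Among the largest differences were genes read mainly in LLC KO or in LLC WT and little in B16. Of those given here, C7 and Tnr reached 1 RPM only in the LLC KO pools. Both passed the filter through these pools alone, so their p-values and calls do not weigh one host effect against another. Stra6, the membrane receptor for the retinol-binding protein, had 55.15 and 45.45 RPM in LLC KO against 2.75 and 3.5 RPM in LLC WT, and at most 0.35 RPM in every B16 pool, a difference of 4.24 (95% interval 3.59 to 4.88, adjusted p = 0.00102). Ptn, the heparin-binding growth factor pleiotrophin, had 248 and 183 RPM in LLC KO against 19.4 and 22.7 RPM in LLC WT, and at most 1.25 RPM in every B16 pool, a difference of 3.73 (95% interval 3.10 to 4.35, adjusted p = 0.0014). The complement component C7 had 9.6 and 10 RPM in LLC KO against 0.15 and 0.1 RPM in LLC WT, and at most 0.10 RPM in every B16 pool, with a difference of 3.97 (95% interval 3.40 to 4.55, adjusted p = 0.00102). All of these, and the tenascin-R gene Tnr (13.25 and 15.4 RPM in LLC KO against 0.4 and 0.95 RPM in LLC WT, difference 3.64 (95% interval 2.82 to 4.46, adjusted p = 0.00301)), were called in all 8 fits, and since they were close to 0 in B16, their B16 host effects carry little information.

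Downward, Lars2, annotated as the mitochondrial leucyl-tRNA synthetase, had 70.75 and 87.55 RPM in LLC KO against 1194 and 1362 RPM in LLC WT, and 163 and 84.75 RPM in B16 KO against 74.3 and 115 RPM in B16 WT, a difference of −4.35 (95% interval −5.37 to −3.34, adjusted p = 0.00315). Mir6236 had 5.25 and 7.55 RPM in LLC KO against 236 and 287 RPM in LLC WT, and 12.6 and 5.95 RPM in B16 KO against 5.2 and 10.75 RPM in B16 WT, a difference of −5.46 (95% interval −6.77 to −4.15, adjusted p = 0.00353). The 2 LLC WT pools stood above the 6 other pools in both, and the difference is therefore set by LLC WT. Which transcripts these reads came from was not tested, and they are not read here as a change of the synthetase mRNA. Pik3r3, a regulatory subunit of phosphatidylinositol 3-kinase, had 2 and 2.05 RPM in LLC KO against 7.85 and 8.1 RPM in LLC WT, and 196 and 207 RPM in B16 KO against 205 and 188 RPM in B16 WT, a difference of −1.78 (95% interval −2.07 to −1.50, adjusted p = 0.00134). All 3 genes held in all 8 fits. Dkk3, a secreted protein of the Dickkopf family, had 2.15 and 2.2 RPM in LLC KO against 16.55 and 48.9 RPM in LLC WT, and 56.2 and 48 RPM in B16 KO against 53.7 and 50.7 RPM in B16 WT, a difference of −3.43 (95% interval −4.77 to −2.10, adjusted p = 0.0135), which was lost without LLC KO replicate 1, B16 KO replicate 1 or either B16 WT replicate (−4.20 to −2.66), and its LLC WT replicates were far apart.

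Calls followed base composition. Genes called higher had a median GC content of 44.8% and a median length of 4402 bases, genes called lower 54.0% and 3184 bases, and all tested genes 49.6% and 3247 bases. In the fifth of genes with the lowest GC content, 17.7% were called higher and 1.16% lower, and in the fifth with the highest, 3.95% and 13.7%. Processed pseudogenes, whose reads can be shared with their parent genes, had 74 of 492 called higher (15%) and 7 lower. After removal of trends of GC content and length, a step chosen after the data had been seen, 863 genes were called higher and 547 lower, and 51.6% of the calls made without it were shared. The hypoxia response list then had 21 genes called higher at a median of 0.98, and T cells 6 and NK cells 10 called lower. The DNA replication list had 3 called lower, mast cells 5 called higher, and fibroblasts 4 called lower and none higher. What part RNA quality or library preparation had in these trends was not tested.

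Of 6 genes tested that are annotated on chromosome Y, 5 were called higher, and 4 of these had adjusted p-values among the smallest (0.000102 to 0.0014 in limma). These 4 passed the filter only through the LLC KO pools. With no reads in B16, their p-values do not weigh one host effect against another. Ddx3y was read at 31 and 34.9 RPM in the LLC KO pools, Eif2s3y at 22.65 and 21.1 RPM, Kdm5d at 6.25 and 7.05 RPM and Uty at 5.95 and 8.45 RPM, and all were listed at 0 in the LLC WT, B16 KO and B16 WT pools, so no fold change is given. The other 2, both chosen after their values had been seen, were read in every pool: Gm21857 had a difference of 1.16 (adjusted p = 0.0238, lost without either LLC KO replicate or any B16 library) and Erdr1 one of −0.10 (adjusted p = 0.735). Xist, the RNA of the inactive X chromosome, chosen after its values had been seen, had 632 and 709.7 RPM in LLC KO against 323 and 296 RPM in LLC WT, and 55.6 and 77.5 RPM in B16 KO against 74.2 and 90.2 RPM in B16 WT. It was thus present in every pool and highest in LLC KO, with a difference of 1.43 (95% interval 0.90 to 1.96, adjusted p = 0.0125), lost only without B16 WT replicate 2 (1.19 to 1.67). Leaving the genes of both sex chromosomes out gave 1131 genes called higher and 1010 lower.

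Genes of tissues next to the graft moved with single pools. Of 5 skeletal muscle genes tested none was called in limma, nor at an unadjusted p under 0.05, and their median difference of 2.48 was 0.02 without B16 WT replicate 1 and 4.93, with 4 called higher, without B16 WT replicate 2. Tnnt3, fast troponin T, had 0.55 and 0.5 RPM in LLC KO against 1.05 and 1.75 RPM in LLC WT, and 0.4 and 0.3 RPM in B16 KO against 109 and 0.25 RPM in B16 WT, with a difference of 2.55 (95% interval −3.51 to 8.61, adjusted p = 0.526) that turned to −1.04 without B16 WT replicate 1. Erythroid genes summed to 35.8 and 355 RPM in LLC KO pools against 115 and 46.2 RPM in LLC WT pools, and to 119 and 22.8 RPM in B16 KO pools against 243 and 304 RPM in B16 WT pools, and of 5 tested none was called in limma, with 1 at an unadjusted p under 0.05. Adipocyte genes gave 0 of 11 called, 0 also at an unadjusted p under 0.05, with a median of 1.39 that was −0.22 without LLC KO replicate 2 and 2.73, with 2 called higher, without LLC KO replicate 1. Their part in the other results was not tested.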

How the data were processed

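RNA of 8 tumor pools was measured by mRNA sequencing (TruSeq libraries, paired reads of 100 bases). Per the labels and the study's methods, the authors used Trimmomatic for trimming, STAR for alignment (GRCm38.p4, mm10) and HTSeq for counts per gene, with versions not given in the sources used here. The deposited values are scores: the authors brought every library to a common total of 20 M and rounded to whole numbers. Whole reads could not be recovered for the table, so limma took the place of the EdgeR test of the authors. The deposited table holds no comparisons of the authors' own.

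The scores were divided by 20 to give RPM. Genes that reached 1 RPM in 2 or more libraries entered limma 3.58.1 (R 4.3.3, Python 3.11.15) as log2(RPM + 0.5), in 1 model of 4 group means with a variance trend (4 residual and 3.68 prior degrees of freedom). Adjusted p-values are Benjamini-Hochberg values over all genes tested, and fold changes on this scale understate those of low genes. The pipeline was tested on simulated data, where it recovered 26% of 2-fold and 69% of 4-fold differences with 5 of its 100 calls false. Depth was estimated from the spacing of low values, with a largest error of 0.06% on 8 simulated libraries.

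The contrast, the members and the 37 gene lists were chosen with earlier results of these data known. Genes named are the 12 largest differences each way among called genes without overlap, the 10 smallest adjusted p, up to 5 genes per list, the 8 smallest adjusted p each way among opposite effects and 6 among effects mainly in B16, the genes the study names, and genes marked as chosen after their values were seen, and not every gene so chosen is reported here. For lists not described in the text, the calls, beside 8.15% higher and 7.05% lower over all genes, were: integrated stress response 2 higher and 3 lower of 19 tested, endoplasmic reticulum chaperones 2 and 1 of 14, immediate early genes 4 and 0 of 18, p53 targets 0 and 2 of 12, melanocytes 1 and 2 of 16, simple epithelium 2 and 0 of 6, and keratinocytes (5 tested) and nerve and Schwann cells (10 tested) 0 and 0 in limma, with 1 and 2 genes at an unadjusted p under 0.05. Positions are from GENCODE M21 (GRCm38), found for 98.942% of genes, and promoters from RefSeq (GRCm38.p6), from 250 bases before to 50 bases after the start site. Alternatives were other pseudocounts, filters, scalings, moderation, library weights, a replicate block, each library left out, chromosomes X and Y left out, each tumor type fitted alone, and removal of GC and length trends.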

Additional observations from a re-analysis of the deposited data

Results flagged for a closer look

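The host effects of LLC and B16 differed by the test of the difference itself for 1199 genes in the higher and 1037 in the lower direction. Of these, 65 and 14 had opposite host effects of at least 0.5 on the log2 scale in the tumor types. The named genes with opposite effects and a higher host effect in LLC were Aqp1 (difference 2.54), Man1a (2.12), Ntn1 (1.82), Nr2f1 (1.68), Calcrl (1.60), Emp2 (1.88), Il1r1 (1.69), Mmp3 (3.22), Ppl (3.56), Cxcl13 (4.66), Cpa3 (3.22), Tpsb2 (3.03), Dcn (1.31) and Dpt (1.57). Those with a lower host effect in LLC were Fads2 (−1.78), Fibin (−3.25), Igkc (−6.45), Nr1d1 (−1.46), Tbc1d2 (−1.34), Mzb1 (−2.05), Iglc3 (−2.24), Pcdhb5 (−1.27), Ptpn5 (−5.55) and Jchain (−4.42). Leave-one-out calls were kept in all 8 fits by Fads2 and by the genes of the first set other than Cpa3, Tpsb2, Dcn and Dpt. Mzb1, Iglc3, Pcdhb5 and Ptpn5 were called only with one LLC WT replicate left out, and Tbc1d2 also without B16 WT replicate 1. Within B16 none of these genes passed the test on its own.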

How the results depend on the processing

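With all 8 libraries, 1199 genes were called higher and 1037 lower. The calls numbered 480 and 315 without the filter on low values, 904 and 603 without the variance trend, 1491 and 922 with trimmed means of M-values, 863 and 547 with GC and length trends removed (chosen after the data were seen), and 2 and 0 without both LLC KO replicate 1 and B16 WT replicate 1, where the fit has 2 residual degrees of freedom. Leaving out 1 library gave 219 to 1987 called higher and 88 to 1664 called lower. For the host effect in LLC, 1066 genes were called higher and 1104 lower in LLC fitted alone, 172 and 105 without both libraries, 2022 lower with GC and length trends removed, and 1160 to 2472 higher and 1521 to 3181 lower without 1 library. For B16, 0 to 11 genes were called lower without 1 library, the 11 without B16 WT replicate 2.

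The replicate numbers do not pair the pools in the labels, and correlations of same-numbered deviations ran from −0.03 to 0.308. With the replicate number as a block, 1355 genes were called higher and 1357 lower, and all 93 called genes named in the text kept their call. Of these 93, 52 kept it without the filter, 81 with GC and length trends removed, 91 with trimmed means of M-values, 46 to 90 without 1 library and 2 without both libraries, and none turned its sign. Uncalled genes that did were Ccrl2 (−0.25 without both libraries, −0.17 to 0.91 without 1), Rarres2 (0.24, −0.81 to 0.22), Gpr1 (0.22, −0.94 to 0.75), Tnnt3 (−1.08, −1.04 to 6.14), Erdr1 (0.016, −0.23 to 0.027) and Fgf2 (−0.019 to 0.58 without 1). A level under about 1 RPM rests on few reads, so that differences there are less precise.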

Other observations

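Genes of the circadian clock, a list put together after values had been seen and therefore not independent, moved in both directions. Of 18 tested, 4 were called higher and 4 lower, beside 8.15% and 7.05% over all genes tested. The activators Arntl and Clock and the repressors Ciart and Bhlhe40 were called higher. Arntl had 58.6 and 54.75 RPM in LLC KO against 29.35 and 30.3 RPM in LLC WT, and 14.05 and 14.85 RPM in B16 KO against 15.15 and 15.15 RPM in B16 WT, a difference of 0.98 (95% interval 0.69 to 1.27, adjusted p = 0.00684). Ciart had 10.85 and 9.4 RPM in LLC KO against 3.85 and 2.9 RPM in LLC WT, and 3.55 and 2.8 RPM in B16 KO against 2.65 and 2.6 RPM in B16 WT, a difference of 1.24 (95% interval 0.62 to 1.85, adjusted p = 0.0256). The period gene Per3, Nr1d1, Dbp and Tef were called lower. Per3 had 3.75 and 3.6 RPM in LLC KO against 10.65 and 14.55 RPM in LLC WT, and 9.1 and 10.5 RPM in B16 KO against 7.6 and 9.3 RPM in B16 WT, a difference of −1.84 (95% interval −2.45 to −1.23, adjusted p = 0.00897), and Nr1d1, a repressor of Arntl, had 21.05 and 17.8 RPM in LLC KO against 32.1 and 45.35 RPM in LLC WT, and 25.7 and 28.7 RPM in B16 KO against 16.9 and 21.4 RPM in B16 WT, a difference of −1.46 (95% interval −2.08 to −0.85, adjusted p = 0.0164). The output genes Dbp and Tef had differences of −1.73 and −1.06. The largest host effect of the list was 1.63 on the log2 scale in LLC and 0.50 in B16. Arntl, Per3 and Bhlhe40 were called in all 8 leave-one-out fits, whereas Nr1d1 was not called without either LLC KO replicate, either B16 KO replicate or B16 WT replicate 1 (−1.71 to −1.22), nor Ciart without either LLC KO replicate, either B16 KO replicate or either B16 WT replicate (1.06 to 1.41). Clock (difference 0.75) was not called without either B16 WT replicate, and was 0.33 with an adjusted p of 0.0618 in limma after removal of GC and length trends. Dbp was lost without either LLC KO replicate, either B16 KO replicate or either B16 WT replicate (−2.27 to −1.20), and Tef without LLC KO replicate 1, B16 KO replicate 1 or either B16 WT replicate (−1.25 to −0.86). The hour at which tumors were collected is not given in the sources used here, and its part was not tested.

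Of 9 genes of the pentose phosphate pathway and of NADPH supply, also put together after values had been seen, 5 were called lower and none higher. Over all genes tested, the shares were 7.05% lower and 8.15% higher. The median difference of the 9 genes was −0.39. G6pdx, the first enzyme of the pathway, had 67.45 and 67.35 RPM in LLC KO against 92.25 and 101 RPM in LLC WT, and 131 and 152 RPM in B16 KO against 106 and 105 RPM in B16 WT, a difference of −0.93 (95% interval −1.21 to −0.64, adjusted p = 0.00752). Pgd, which catalyses a later oxidative step, had 172.5 and 162 RPM in LLC KO against 273 and 249.85 RPM in LLC WT, and 219 and 215 RPM in B16 KO against 189 and 200.45 RPM in B16 WT, a difference of −0.80 (95% interval −1.04 to −0.56, adjusted p = 0.00698). Me1, the cytosolic malic enzyme, had 43.8 and 40.3 RPM in LLC KO against 77.9 and 75.75 RPM in LLC WT, and 159 and 176 RPM in B16 KO against 161 and 159 RPM in B16 WT, a difference of −0.93 (95% interval −1.18 to −0.67, adjusted p = 0.00516). These 3 genes were called in all 8 leave-one-out fits, and in each the LLC KO pools were the lowest group. Taldo1 (−0.59, adjusted p = 0.0245) and Tkt (−0.38, adjusted p = 0.0299), of the branch without oxidation, were called with either LLC WT replicate left out and in no other leave-one-out fit.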
